A study of Mus musculus with 8 samples.

Results

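The transcripts of 10 genes that keep the redox balance of a cell were compared between TNFR2+ and TNFR2- regulatory T cells (Tregs) of the mouse spleen. The genes were taken by name: the NRF2 regulators *Nfe2l2* and *Keap1*, the glutathione synthesis and recycling genes *Gclc*, *Gclm* and *Gsr*, the peroxidases *Gpx1* and *Gpx4*, the glutaredoxin *Glrx*, and the superoxide dismutases *Sod1* and *Sod2*. All 10 are among the 20172 genes of the normalized counts, and all 10 passed the filter on low values (mean normalized count of 10 or more), as did 13990 genes in all. The series asks how Tregs that carry the TNF receptor TNFR2 differ from those that do not. Both populations came from the spleens of female *Foxp3* CreYFP mice, which carry a fusion of yellow fluorescent protein and Cre recombinase driven by *Foxp3*, and were sorted as CD4 T cells with YFP, with or without TNFR2 on the surface. The cells were sequenced without stimulation, as 4 libraries of each population, and every library carries the same genotype, so the comparison is between subsets of 1 kind of mouse. The study used young adult mice, but the labels give no age for these libraries. The labels do not say whether the 4 libraries of a group came from separate mice. The study's legend for this comparison gives n = 4 beside Tregs sorted from the spleens of these mice. It does not say whether spleens were pooled or whether both populations came from the same mice. The p-values thus measure the spread between these libraries, which may be partly technical.

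NRF2, the product of *Nfe2l2*, is a transcription factor that the adaptor KEAP1 keeps low by handing it to a ubiquitin ligase. When oxidants or electrophiles modify KEAP1, NRF2 accumulates, pairs with small MAF proteins and acts on antioxidant response elements of genes that make glutathione and reduce peroxides. Glutathione is the main soluble thiol of the cell; glutamate-cysteine ligase makes its precursor, glutathione reductase renews it with NADPH, glutathione peroxidases spend it on peroxides, and glutaredoxin uses it to free protein thiols. Superoxide dismutases turn superoxide into hydrogen peroxide, in the cytosol (SOD1) or in mitochondria (SOD2). In T cells glutathione is known to be needed for growth after activation, and Tregs are known to be more sensitive than other T cells to some changes in redox state.

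The normalized counts of a library summed to between 9576920 and 10295226 in TNFR2+ Tregs and to between 10483291 and 11492762 in TNFR2- Tregs, from an estimated 9090000 to 12100000 reads. *Tnfrsf1b*, which encodes TNFR2, had normalized counts of 3148, 1839.8, 2631 and 2383 in TNFR2+ replicates 1 to 4 and 1266, 1563, 1177 and 1277 in TNFR2- replicates 1 to 4, so the groups did not overlap and *Tnfrsf1b* was higher in the libraries labelled TNFR2+. All 6 Treg markers looked for were present, with *Foxp3* at 2812 to 3313 in TNFR2+ and 3292 to 4033 in TNFR2- Tregs. Of these, 3 (*Ikzf2*, *Ctla4* and *Cd3e*) were called higher in TNFR2+ Tregs and none lower. *Il2ra* went the other way without overlap, at 2561 to 3070 against 3219 to 3990 (log2 fold change -0.34, limma adjusted p = 0.0860). *Foxp3* also had a negative log2 fold change (-0.23, limma adjusted p = 0.232) and *Cd4* a positive one (0.28, limma adjusted p = 0.192). The sums of the 6 did not overlap (25680 to 29550 against 19550 to 23700), and *Ikzf2* had the highest mean of them in each group (9763 and 5275). Of 10 erythroid markers only *Alas2* had a row, at 0 in 6 libraries and at most 12.1 in the others. Summed B cell markers (8 of 10 with a row) lay at 413 to 524 in TNFR2+ and 206 to 482 in TNFR2- Tregs, myeloid markers (6 of 13) at 35.1 to 75.5 and 53.4 to 141, cytotoxic lymphocyte markers (5 of 8) at 139 to 181 and 92.5 to 161, and the only platelet marker of 5 with a row at 12.2 to 222 and 31.2 to 178. Of these markers of other cells, 1 was called, the cytotoxic granule gene *Nkg7*, at 49.2 to 92.3 against 2.03 to 18.4 (log2 fold change 3.19, limma adjusted p = 0.00927). Cell cycle genes also differed between the groups: all 12 listed had a row, 7 were called higher and none lower, and their sum was 8576 to 12360 in TNFR2+ and 3250 to 5144 in TNFR2- Tregs. TNFR2- replicate 3 stood apart from the other 7 libraries on the second principal component (91.3 against -39.1 to 18.0).

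*Glrx* was the only gene of the 10 that passed the test, and it was higher in TNFR2+ Tregs. The test was limma on log2(normalized count + 1), with p adjusted over all 13990 genes and a threshold of 0.05, and log2 fold changes below are TNFR2+ minus TNFR2- on that scale. Over all tested genes 7.91% were called (1107 genes), 4.52% higher and 3.39% lower in TNFR2+ Tregs. Thus 1 of 10 members called is close to the share of all genes. At an unadjusted p under 0.05, 4 members stood out (*Glrx*, *Gsr* and *Gpx4* higher, *Nfe2l2* lower), where 23% of all genes did. The groups did not overlap for 2 members, *Glrx* and *Nfe2l2*, where 15.4% of all genes had no overlap. The log2 fold change was above 0 for 7 members and below 0 for 3, with a median of 0.34, against -0.01 for all genes tested. The 3 genes with a negative value were *Nfe2l2*, *Gclc* and *Gclm*, that is, the regulator and both subunits of glutamate-cysteine ligase, and the other 7 had positive values. These signs are a description, since 9 of the 10 genes did not pass.

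**Figure D1:**
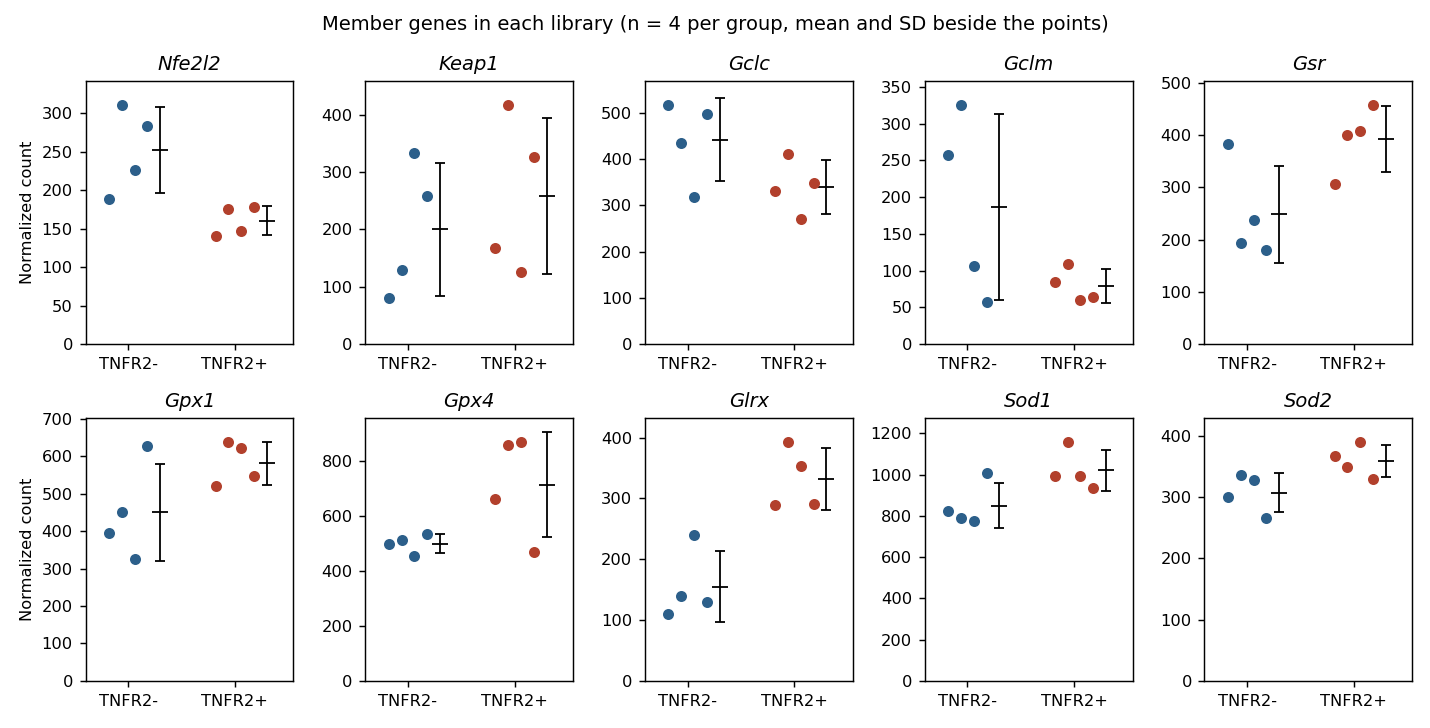
Normalized count of each of the 10 genes (y axis, from 0) in the 4 TNFR2- libraries (blue) and the 4 TNFR2+ libraries (red), in replicate order, with the mean and SD beside the points. The points of *Nfe2l2* and *Glrx* do not overlap between the groups, whereas *Keap1* and *Gclm* are spread over several-fold ranges.

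The DNA just before the start of these genes was read for short motifs, to show which members carry the letters that NRF2 and the related AP-1 factors are known to bind. Sequences are from RefSeq on GRCm38.p6, in windows of 250 bases before to 50 after an annotated start, written 5′ to 3′ on the strand of the gene. A window was given for 8 members, and *Gclc* and *Gsr* had none. The antioxidant response element core was searched as TGACNNNGC and the AP-1 site as TGANTCA, on both strands; the motifs can share their opening letters, and no member held both. These 8 members had 12 windows, some of them overlapping; the core was found in 3 windows, of 3 members, and the AP-1 site in 2 overlapping windows of *Glrx*. Of all 32851 windows, 12.4% held the core and 7.81% the AP-1 site. Capitals mark the match, which for *Gclm* and *Sod1* reads on the opposite strand.
Nfe2l2 (chr2:75704879-75704913, minus strand): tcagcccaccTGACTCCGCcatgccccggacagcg
Gclm (chr3:122245407-122245447, plus strand): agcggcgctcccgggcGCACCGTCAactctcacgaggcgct
Sod1 (chr16:90220690-90220730, plus strand): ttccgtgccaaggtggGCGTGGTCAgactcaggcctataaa
Glrx (chr13:75839771-75839809, plus strand): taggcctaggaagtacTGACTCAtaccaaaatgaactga
The matches start 240 bases before the start site in *Nfe2l2*, 134 in *Gclm*, 56 in *Sod1* and 98 or 99 in *Glrx*, depending on which of its annotated starts is used. The 3 genes with the core did not move together: *Sod1* had a positive log2 fold change, the others negative ones, and none of the 3 passed the test. A match is a description of letters and not a site of binding.

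*Nfe2l2* (ENSMUSG00000015839, chr2:75675513-75704641, GRCm38, minus strand) encodes NRF2 itself. Its normalized counts were 141, 176, 147 and 179 in TNFR2+ replicates 1 to 4 and 188, 311, 227 and 283 in TNFR2- replicates 1 to 4. Every TNFR2+ library thus lay below every TNFR2- library, the closest being TNFR2+ replicate 4 and TNFR2- replicate 1. The mean was 161 ± 19.3 (SD, n = 4) against 252 ± 55.3 (SD, n = 4), a log2 fold change of -0.63 (SE 0.23). The separation gives the smallest p the exact permutation test over 70 relabellings can give (two-sided p = 0.0286), but the limma adjusted p was 0.122, so the difference did not pass over all genes. Its adjusted p stayed between 0.0883 and 0.284 under 18 other settings. In these bulk samples, fewer cells with a transcript and less RNA per cell cannot be told apart.

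*Keap1* (ENSMUSG00000003308, chr9:21229730-21239361, minus strand) encodes the adaptor that holds NRF2 low. Its counts were 167, 417, 125 and 326 in TNFR2+ Tregs and 80.0, 129, 333 and 259 in TNFR2- Tregs, replicates 1 to 4 in order. Low and high libraries occurred in both groups, and the ranges overlapped over most of their length. The spread within a group was a CV of 52.7% in TNFR2+ and 58.1% in TNFR2- Tregs, where counting error alone would give about 6.04% and 7.28%. The log2 fold change was 0.42, with a 95% interval from -0.58 to 1.41 (limma adjusted p = 0.647), so that a change of more than 2-fold in the direction of TNFR2+ Tregs was within the interval. Without TNFR2- replicate 1 the value was 0.05 and without TNFR2- replicate 3 it was 0.73. An antisense gene, *Gm16754*, overlaps an exon of *Keap1*, and the sources used here do not say whether strand was used when reads were assigned.

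*Gclc* and *Gclm* encode the catalytic and the modifier subunit of glutamate-cysteine ligase, which carries out the rate-limiting step of glutathione synthesis. *Gclc* (ENSMUSG00000032350, chr9:77754535-77794485, plus strand) had counts of 331, 411, 271 and 347 in TNFR2+ Tregs and 517, 435, 318 and 497 in TNFR2- Tregs. The TNFR2- libraries were higher except replicate 3, which lay inside the TNFR2+ range. The log2 fold change was -0.37 (SE 0.21, limma adjusted p = 0.320). *Gclm* (ENSMUSG00000028124, chr3:122245557-122270732, plus strand) had counts of 84.8, 109, 59.5 and 63.7 in TNFR2+ Tregs and 257, 325, 107 and 56.8 in TNFR2- Tregs. TNFR2- replicates 1 and 2 were well above all other libraries, replicate 3 lay at the top of the TNFR2+ range, and replicate 4 was the lowest library of all 8. *Gclm* thus had the largest negative log2 fold change of the 10 genes, -0.96, and also the widest SE, 0.48 (limma adjusted p = 0.261). Leaving out TNFR2- replicate 4 moved it to -1.42 with an adjusted p of 0.0607, and leaving out TNFR2- replicate 2 moved it to -0.59. Parts of annotated *Gclm* transcripts overlap the pseudogene *Gm6061* and are nearly identical to *Ppia*, a highly expressed cyclophilin gene. *Ppia* counts were 5509 to 6461 in TNFR2+ and 3965 to 5355 in TNFR2- Tregs. *Ppia* was itself called higher in TNFR2+ Tregs (log2 fold change 0.42, limma adjusted p = 0.0419). The part of *Gm6061* and *Ppia* reads in the *Gclm* value was not tested.

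*Gsr* encodes glutathione reductase, which returns oxidized glutathione to its reduced form. *Gsr* (ENSMUSG00000031584, chr8:33652523-33698163, plus strand) had counts of 306, 401, 409 and 458 in TNFR2+ replicates 1 to 4 and 382, 193, 238 and 181 in TNFR2- replicates 1 to 4. Only TNFR2- replicate 1 reached into the TNFR2+ range; the other 3 lay below every TNFR2+ library. The mean was 393 ± 63.4 against 248 ± 92.6 (SD, n = 4 each), 1.58-fold, with a log2 fold change of 0.71 (SE 0.25). The limma adjusted p was 0.104, and it fell under the threshold only without TNFR2- replicate 1 (log2 fold change 0.94, adjusted p = 0.0274). The exact permutation test gave a two-sided p of 0.0571. Within glutathione synthesis and recycling, then, *Gclc* and *Gclm* had negative values and *Gsr* a positive one, with none of the 3 past the threshold.

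*Glrx* (ENSMUSG00000021591, chr13:75839868-75850154, plus strand) encodes glutaredoxin, the cytosolic enzyme that removes glutathione from protein thiols. Its counts were 289, 393, 353 and 291 in TNFR2+ replicates 1 to 4 and 109.9, 140.2, 240.4 and 129 in TNFR2- replicates 1 to 4. All 4 TNFR2+ libraries lay above all 4 TNFR2- libraries, and TNFR2- replicate 3 was the highest of its group. The mean was 332 ± 50.9 (SD, n = 4) against 155 ± 58.3 (SD, n = 4), 2.14-fold higher in TNFR2+ Tregs. The log2 fold change was 1.15, with a 95% interval from 0.58 to 1.71, and the limma adjusted p was 0.0170; the exact permutation p was 0.0286, the smallest possible. The spread between TNFR2- libraries (CV 37.7%) was well above counting error (8.28%). The call was lost without TNFR2+ replicate 2 (log2 fold change 1.06, adjusted p = 0.0650), without TNFR2+ replicate 3 (1.11, 0.0537), and when limma was run without its intensity trend (adjusted p = 0.0608), while leaving out TNFR2- replicate 3 gave 1.38 and an adjusted p of 0.00279. The summed cell cycle genes were higher in the same 4 libraries, at 8576 to 12360 against 3250 to 5144. Single genes of that list differed: *Pcna*, *Tyms* and *Ccnb1* overlapped between the groups, and *Pcna* had a negative log2 fold change (-0.17). The part of the cell cycle genes in the *Glrx* result was not tested.

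*Gpx1* and *Gpx4* encode selenium-containing glutathione peroxidases; GPX1 reduces soluble peroxides and GPX4 reduces lipid peroxides in membranes, the step that holds back ferroptosis. *Gpx1* (ENSMUSG00000063856, chr9:108338903-108340343, plus strand) had counts of 519, 639, 621 and 547 in TNFR2+ Tregs and 395, 451, 326 and 628 in TNFR2- Tregs. TNFR2- replicates 1 to 3 were below all TNFR2+ libraries, and replicate 4 was above all but 1 of them. Its log2 fold change was 0.41 (SE 0.20, limma adjusted p = 0.255). *Gpx4* (ENSMUSG00000075706, chr10:80047166-80056439, plus strand) had counts of 662, 858, 872 and 468 in TNFR2+ Tregs and 500.0, 512, 454 and 534 in TNFR2- Tregs. Here it was TNFR2+ replicate 4 that fell inside the range of the other group, and the TNFR2- libraries lay close together (CV 6.79%, against 26.6% in TNFR2+ Tregs). The log2 fold change of *Gpx4* was 0.47 (SE 0.20, limma adjusted p = 0.177), and without TNFR2+ replicate 4 it was 0.66 with an adjusted p of 0.0413. *Gpx4* has 2 nearly identical annotated copies, *Gpx4-ps2* and *AC122253.3*, neither of which has a row. Whether reads of these copies were counted as *Gpx4* was not tested. *Alas2*, the only 1 of 10 erythroid markers with a row, was at 0 in 6 of the 8 libraries. The sources used here do not say which rows were left out before deposit. In all 8 libraries *Gpx1* had counts of 326 or more and *Gpx4* of 454 or more, and the part of red cell RNA in these counts was not tested.

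*Sod1* encodes the copper- and zinc-dependent superoxide dismutase of the cytosol and *Sod2* the manganese-dependent enzyme of mitochondria. *Sod1* (ENSMUSG00000022982, chr16:90220754-90226329, plus strand) had counts of 993, 1160.4, 995 and 935 in TNFR2+ Tregs and 825, 790.5, 777 and 1009 in TNFR2- Tregs. TNFR2- replicates 1 to 3 lay below every TNFR2+ library, and replicate 4 was higher than 3 of them. *Sod1* has 1 nearly identical annotated copy, *Gm8566*, without a row. Whether reads of that copy were counted as *Sod1* was not tested. *Sod2* (ENSMUSG00000006818, chr17:13006846-13040063, plus strand) had counts of 367, 349, 390.4 and 329 in TNFR2+ Tregs and 300.3, 335, 327 and 266 in TNFR2- Tregs. Only TNFR2+ replicate 4 reached into the TNFR2- range. On the log2 scale the differences were 0.27 (95% interval -0.04 to 0.57, limma adjusted p = 0.289) for *Sod1* and 0.23 (95% interval -0.15 to 0.61, limma adjusted p = 0.491) for *Sod2*. Both intervals span 0 and end below a log2 fold change of 1. No other member had CVs as low in both groups: 9.53% and 12.7% for *Sod1* and 7.28% and 10.2% for *Sod2*, in TNFR2+ and TNFR2- Tregs. A transcript of *Sod2* is nearly identical to parts of *Rps6ka2* and *Gm11032*, at counts of 25.1 to 135 and 0 to 23.8. *Rps6ka2* was itself called lower in TNFR2+ Tregs (log2 fold change -1.39, limma adjusted p = 0.0351), at 25.1 to 52.8 against 76.9 to 135, and its part in the *Sod2* value was not tested.

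**Figure D2:**
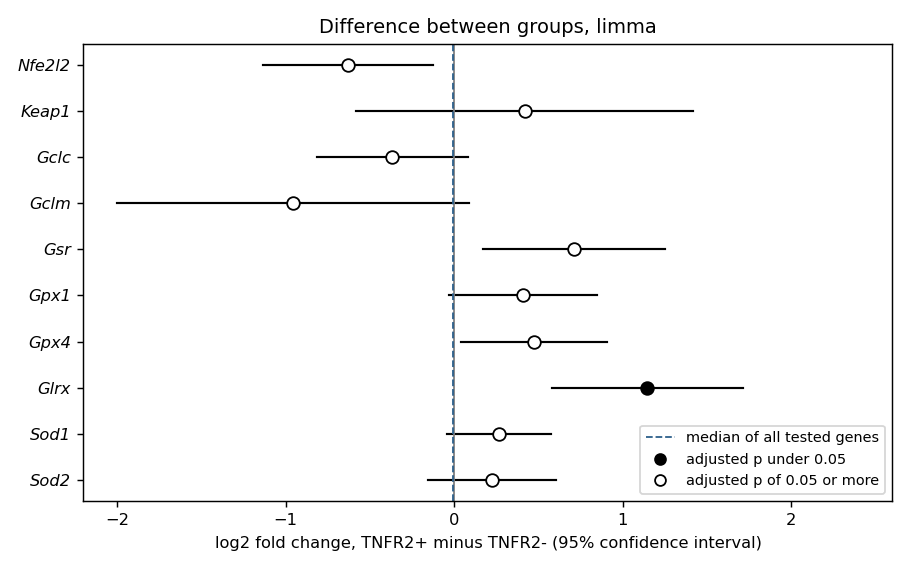
log2 fold change of each gene (x axis, TNFR2+ minus TNFR2-) with its 95% confidence interval from limma, and the median of all 13990 tested genes as a dashed line at -0.01. *Glrx* is the only filled point (adjusted p under 0.05); the intervals of *Nfe2l2*, *Gsr* and *Gpx4* also leave out 0 but their adjusted p is 0.05 or more.

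Levels were compared between genes as normalized count per kilobase of the median annotated coding transcript. *Sod1* was the most abundant of the 10, at 1592 in TNFR2+ and 1327 in TNFR2- Tregs, and its lowest library (1213) was above the highest library of any other member. *Gpx4* and *Gpx1* followed, at 746 and 739 per kilobase in TNFR2+ and 521 and 572 in TNFR2- Tregs, and could not be ordered beyond their spread. *Glrx* came next in TNFR2+ Tregs at 249 per kilobase (216 to 295), above every library of *Gsr* (147 on average, highest 171). In TNFR2- Tregs *Glrx* stood at 116 per kilobase (82.5 to 180) and overlapped with *Gclm* (186), *Gclc* (129), *Sod2* (97.4) and *Gsr* (93.0). *Nfe2l2* and *Keap1* stood at 64.9 and 82.1 per kilobase in TNFR2+ and at 102 and 63.5 in TNFR2- Tregs, and overlapped with *Gclm* in TNFR2+ Tregs (79.2) and with *Sod2* and *Gsr* in TNFR2- Tregs. This order depends on the transcript used: with the longest coding transcript, *Gclm* fell from 133 to 23.8 per kilobase over all libraries, and *Sod2* from 106 to 56.8.

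Partners of a reaction or a complex were compared as a ratio inside each library, on the log2 scale and on counts not scaled for length, for 4 pairs. The log2 ratio of *Gclc* to *Gclm* was 1.95, 1.90, 2.17 and 2.43 in TNFR2+ and 1.00, 0.42, 1.57 and 3.11 in TNFR2- replicates 1 to 4. The spread was narrow in TNFR2+ Tregs (SD 0.24) and wide in TNFR2- Tregs (SD 1.15), and the means differed by 0.59 (two-sided p = 0.371 by exact permutation, 0.742 adjusted over the 4 ratios). That difference was 0.22 without TNFR2- replicate 2 and 1.12 without TNFR2- replicate 4. The log2 ratio of *Nfe2l2* to *Keap1* was -0.25, -1.24, 0.23 and -0.86 in TNFR2+ and 1.22, 1.26, -0.55 and 0.13 in TNFR2- replicates 1 to 4. It differed by -1.05 on average, but the groups overlapped and the test did not pass (exact permutation p = 0.143, adjusted 0.572). *Gpx1* to *Gpx4* differed by -0.07 (p = 0.629 by exact permutation) and *Sod1* to *Sod2* by 0.04 (p = 0.800 by exact permutation). The log2 ratio of *Gpx1* to *Gpx4* was above 0 in replicate 4 of each population and below 0 in the other 6 libraries.

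**Figure D3:**
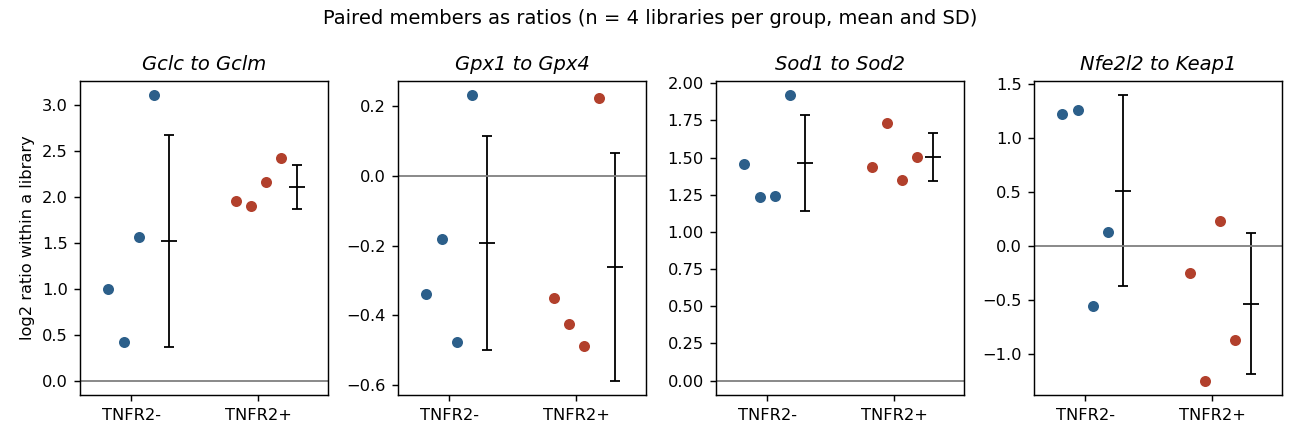
log2 ratio of paired members within a library (y axis, a separate scale in each panel) in TNFR2- (blue) and TNFR2+ (red) libraries, with mean and SD, n = 4 per group. All 4 ratios overlap between the groups, and *Gclc* to *Gclm* is spread over 0.42 to 3.11 in TNFR2- Tregs and over 1.90 to 2.43 in TNFR2+ Tregs.

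The other genes of the pathway were taken from 11 lists of 122 genes, of which 111 had a row and 99 were tested. By the same test 7 were higher and 3 lower in TNFR2+ Tregs, or 10.1% of those tested, close to the 7.91% of all genes. The NRF2 target list had 3 of 18 genes called higher and none lower, with a median log2 fold change of 0.32 against -0.01 for all genes. This median leaves out the 10 members. Among them, the glutathione genes *Gclc* and *Gclm* had log2 fold changes of -0.37 and -0.96, and *Gsr* had 0.71, none of them called. *Txn1*, which encodes thioredoxin, had counts of 284, 301, 187 and 232 in TNFR2+ and 64.2, 146, 98.1 and 107 in TNFR2- Tregs (log2 fold change 1.30, limma adjusted p = 0.0150). *Gsta4*, a glutathione transferase for products of lipid peroxidation, had counts of 136, 115, 84.6 and 162 against 25.5, 35.6, 44.4 and 46.2 (log2 fold change 1.69, adjusted p = 0.0112). *Ephx1*, a microsomal epoxide hydrolase, lay at 1066 to 1345 against 641 to 959 in normalized counts (log2 fold change 0.65, adjusted p = 0.0229). None of these 3, named because they were called, overlapped between the groups, where 15.4% of all tested genes had no overlap. *Hmox1* and *Nqo1*, widely used as readouts of NRF2, were picked here after their values were seen. *Hmox1*, which encodes heme oxygenase, overlapped between the groups at 14.7 to 84.9 and 8.51 to 57.4 (log2 fold change 1.53, limma adjusted p = 0.225). *Nqo1*, a quinone reductase, had low counts, at most 5.93 in TNFR2+ and 11.6 in TNFR2- Tregs, and was not tested.

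Among 11 partners, competitors and degradation factors of NRF2, 2 were called and both were lower in TNFR2+ Tregs, where 3.39% of all tested genes were called lower. *Bach2*, which encodes a repressor that competes for related DNA elements and is known for holding T cells in a resting state, had counts of 953, 949, 1250.1 and 787 in TNFR2+ and 2477, 2694, 1272 and 1579 in TNFR2- replicates 1 to 4. The highest TNFR2+ library was just below the lowest TNFR2- library, and the log2 fold change was -0.98 (limma adjusted p = 0.0188). *Maff*, which encodes a small MAF protein that dimerizes with NRF2 or with BACH proteins, had counts of 452, 459, 709 and 552 against 1035, 917, 962 and 1041, with a wider gap (log2 fold change -0.89, adjusted p = 0.00594). The other 9 genes of the list did not pass, and its median was -0.01.

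Among genes that make, take up or use glutathione, 1 of 9, 2 of 15 and 0 of 6 were called in the 3 lists, where 7.91% of all genes were. Of 9 tested genes for synthesis, breakdown and cystine uptake only *Slc3a2* was called, the shared heavy chain of several amino acid transporters, at 2849.9 to 3813 in TNFR2+ and 1864 to 2623 in TNFR2- Tregs (log2 fold change 0.53, limma adjusted p = 0.0290). The median log2 fold change of these 9 genes was 0.02, with 5 above 0 and 4 below. Of 15 peroxidases and transferases, *Gstt3* was called beside *Gsta4*. *Gstt3* had counts of 54.5, 60.5, 28.1 and 42.6 in TNFR2+ and 18.2, 5.55, 3.02 and 0 in TNFR2- Tregs, so its log2 fold change of 3.27 (adjusted p = 0.0356) rests on low values and on the pseudocount. None of 6 other glutaredoxin and deglutathionylation genes passed in limma, and 2 had an unadjusted p under 0.05, *Bola2* and *Glrx3*. *Bola2* lay at 147 to 247 in TNFR2+ and 40.9 to 130 in TNFR2- Tregs, without overlap. Its log2 fold change was 1.14 (limma adjusted p = 0.0765). *Glrx3* and *Glrx2*, the most abundant of the 6, differed by 0.39 and -0.10 on the log2 scale (limma adjusted p = 0.203 and 0.834). Of the 6, 5 had positive log2 fold changes and 1 a negative one, with a median of 0.39.

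NADPH is the electron source of glutathione reductase, and NADPH oxidase spends it to make superoxide. Of 11 genes of NADPH supply only *Me2*, a mitochondrial malic enzyme, was called, with counts of 137, 144, 88.4 and 134 in TNFR2+ and 241, 285, 193 and 256 in TNFR2- Tregs (log2 fold change -0.96, limma adjusted p = 0.0316). Of 7 NADPH oxidase genes 2 were called higher, where 4.52% of all tested genes were called higher and 3.39% lower. *Cybb*, the catalytic subunit of the phagocyte oxidase, had counts of 552, 796, 930.3 and 701 in TNFR2+ and 339, 133, 257 and 118 in TNFR2- replicates 1 to 4, 3.52-fold by the means (log2 fold change 1.92, adjusted p = 0.00239). *Ncf4*, a cytosolic subunit, lay at 396 to 617 against 204 to 335 (log2 fold change 0.81, adjusted p = 0.0407). Both genes are also expressed in B cells and myeloid cells. Summed B cell markers were 413 to 524 in TNFR2+ and 206 to 482 in TNFR2- Tregs. *Cd22* had the highest mean of them in each group, at 273 to 350 against 54.7 to 223 without overlap (limma adjusted p = 0.0612). Of the other tested B cell markers, all with overlap, *Cd79b* and *Ms4a1* had positive log2 fold changes and *Ebf1* a negative one. Summed myeloid markers were 35.1 to 75.5 and 53.4 to 141. The tested ones, *Cd68* and *Itgam*, had negative log2 fold changes, *Itgam* without overlap (2.92 to 8.80 against 10.6 to 21.2). None of either list was called, and their part in the *Cybb* and *Ncf4* results was not tested.

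No gene passed in the lists of superoxide dismutase partners and catalase (3 tested), selenoprotein synthesis (8), lipid peroxidation and ferroptosis (7) or other selenoproteins (11); at an unadjusted p under 0.05 they held 0, 0, 1 and 2 genes. *Cat*, which encodes catalase, and *Ccs*, the copper chaperone of SOD1, differed by 0.27 and -0.26 on the log2 scale, neither past the threshold in limma (adjusted p = 0.407 and 0.684). *Rpl30* and *Secisbp2*, both known to bind the element that directs selenocysteine insertion, differed by -0.31 and 0.06 on the same scale (adjusted p = 0.373 and 0.885). *Acsl4*, which prepares polyunsaturated lipids that GPX4 protects, lay at 543 to 677 against 415 to 473 without overlap, yet its adjusted p was 0.112 (log2 fold change 0.43). *Tfrc*, the transferrin receptor, stood at -0.17 on the log2 scale (adjusted p = 0.780). *Selenok* and *Selenot*, selenoproteins of the endoplasmic reticulum, had log2 fold changes of -0.03 and 0.04, the closest to 0 of the genes named. In the same list 2 genes had an unadjusted p under 0.05 and no overlap, in opposite directions. *Selenon* lay at 7.73 to 46.7 against 49.1 to 149 (log2 fold change -1.77, limma adjusted p = 0.0713). *Selenoh* lay at 108 to 186 against 44.0 to 90.2 (log2 fold change 1.00, limma adjusted p = 0.0939).

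**Figure D4:**
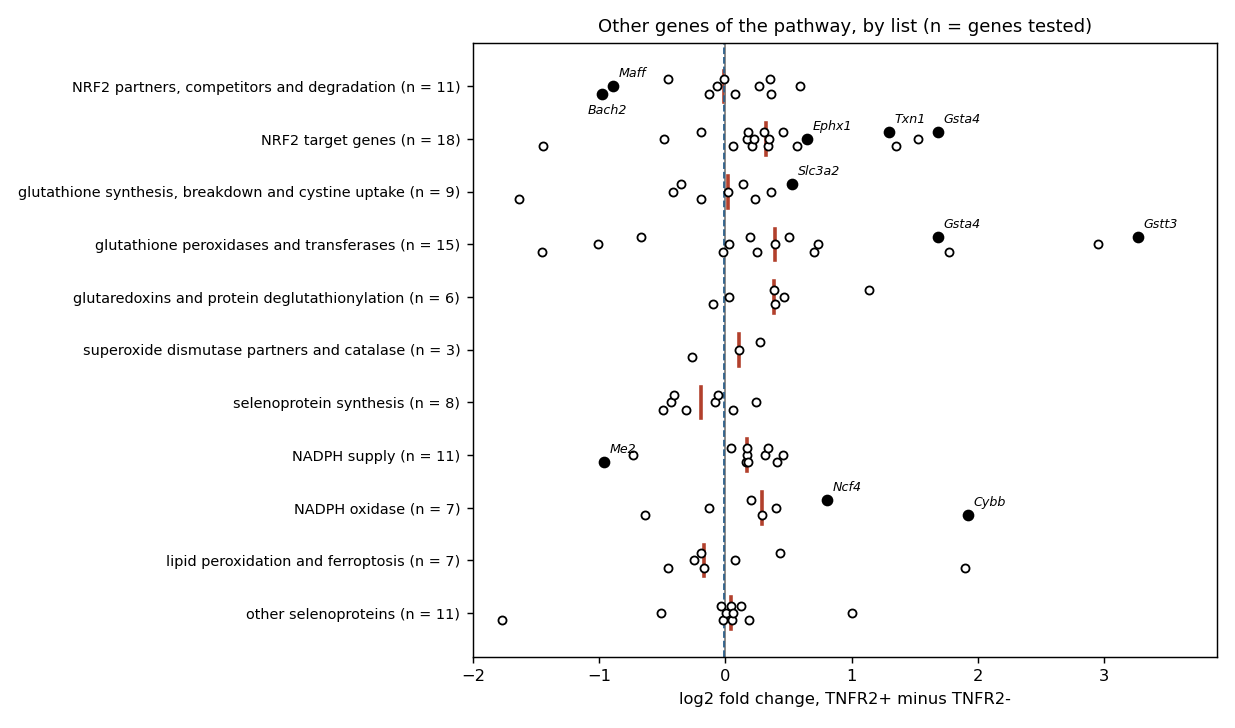
log2 fold change (x axis, TNFR2+ minus TNFR2-) of each tested gene in the 11 lists (rows, with the number of genes tested), where filled and named points passed an adjusted p under 0.05, red bars are list medians and the dashed line is the median of all tested genes at -0.01. The 10 called genes fall in 6 of the 11 lists, and *Gsta4* is in 2.

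Of the 10 called pathway genes, *Gsta4*, *Cybb* and *Maff* passed under every alternative that was run. The other 7 lost their call without the intensity trend, and each lost it without at least 2 of the 8 libraries, in turn (*Txn1* without 2, *Bach2* and *Ephx1* 4, *Slc3a2* 5, *Gstt3* 6, and *Me2* and *Ncf4* 7). *Ncf4* also lost it under quantile normalization (adjusted p = 0.0556). For *Txn1* the libraries were TNFR2+ replicates 1 and 2 (adjusted p = 0.0516 and 0.0605). Lost calls had adjusted p of at most 0.136, and no direction changed.

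**Figure D5:**
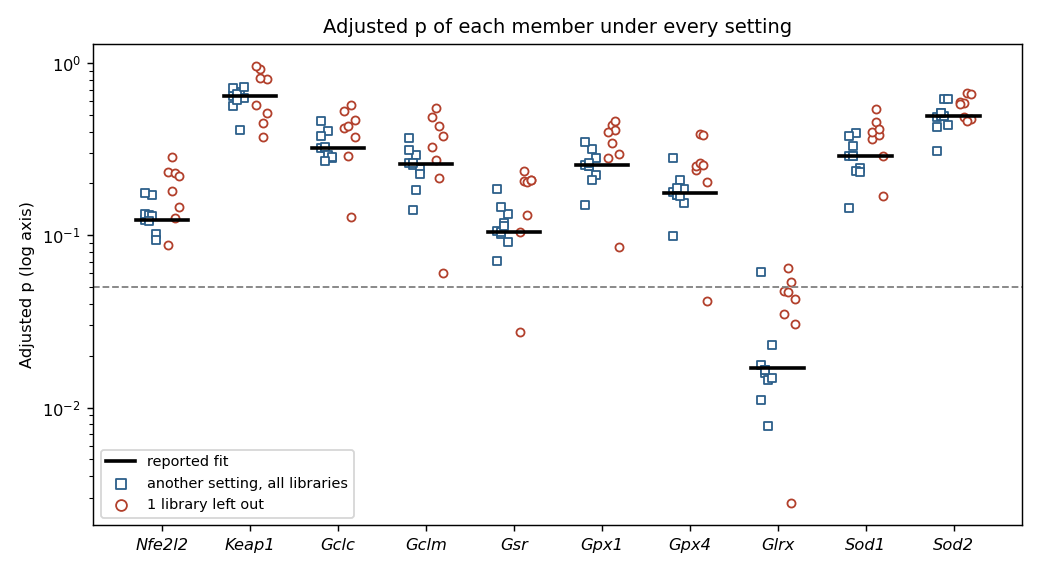
Adjusted p from limma (log axis) of each of the 10 genes in the reported fit (black line), under 10 other settings with all libraries (blue squares) and with each of 8 libraries left out (red circles), against the threshold of 0.05 (dashed). *Glrx* has 3 of its 18 alternatives above the line, and *Gsr* and *Gpx4* each have 1 below it.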

How the data were processed

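RNA was measured in 8 libraries of sorted spleen Tregs, 4 TNFR2+ and 4 TNFR2-, grouped by their titles. Per the labels and the study's methods, the authors trimmed reads with Trim Galore, ran Salmon 1.3.0 against Ensembl transcripts of GRCm38, and scaled the gene counts by DESeq2 1.28 in R 4.0. The deposited signal is this normalized count, not on a log scale. How transcripts were summed to genes, and whether strand was used, is not given in the sources used here. The spacing of low values gave an estimated depth per library (9090000 to 12100000 reads) but did not give whole reads for genes with several transcripts, so no count model was fitted.

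Symbols and coordinates came from GENCODE on GRCm38 (20008 of 20172 identifiers matched). Values were log2(normalized count + 1). Genes with a mean of at least 10 (13990) were fitted with limma 3.58.1 in R 4.3.3, with an intensity trend, two-sided, and Benjamini-Hochberg adjustment over all of them; the threshold was 0.05. Single values also had an exact permutation test over 70 relabellings (smallest p 0.0286). Copies were sought with blastn 2.17.0 (at least 95% identity over at least 50% of the other transcript). Counting error was taken from the estimated reads and covers that error only. The fit was also run on simulated counts with known changes. Their spread was set by hand and not taken from these libraries, so that run checks the code only. Named genes are the 10 members, every called gene of 11 hand-written pathway lists (for a list with none, its 2 most abundant genes) and *Tnfrsf1b*. Marker genes and genes sharing sequence with a member are named beside the results they touch, and any other gene was chosen after its values were seen. The members and lists were chosen with earlier results of these data known. Alternatives were other pseudocounts, filters, variance models, scalings, a replicate block, and leaving out each library.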

Additional observations from a re-analysis of the deposited data

How the results depend on the processing

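The 10 genes were refitted under 18 alternatives each (10 with all libraries, 8 with 1 library left out). Of 180 fits, 175 kept direction and side of the threshold, 3 lost a call (*Glrx*), 2 gained a call (*Gsr* and *Gpx4*), and none changed direction. Without the intensity trend the adjusted p of *Glrx* was 0.0608 at the same log2 fold change of 1.15, so 0 members were called, and 465 of all genes in place of 1107. With 1 library left out, the log2 fold change of *Glrx* lay between 1.00 and 1.38, that of *Gsr* between 0.58 and 0.94 and that of *Gpx4* between 0.36 and 0.66; 0 to 2 members and 636 to 1324 of all genes were called. Among the fits with 1 library left out, the fewest calls over all genes came without TNFR2+ replicate 2 (636), TNFR2+ replicate 3 (693) and TNFR2- replicate 2 (711). Rescaling without mitochondrial genes, *Gm26917* and *Gm42418* moved the median of all genes from -0.01 to 0.08. The difference in the ratio of *Gclc* to *Gclm* lay between 0.22 and 1.12 when a library was left out, and those of *Gpx1* to *Gpx4* (-0.23 to 0.07) and *Sod1* to *Sod2* (-0.04 to 0.19) crossed 0.

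Same-numbered libraries of the 2 groups did not deviate together (correlations of 0.00 to -0.04 over genes, and no library correlated best with its own number), so the numbers were not treated as pairs. A replicate block gave 1183 calls over all genes and 1 among the members (*Glrx*, adjusted p = 0.0166), and moved the adjusted p of *Gclm* to 0.141. The CV between libraries ranged from close to counting error (6.79% against 4.61% for *Gpx4* in TNFR2- Tregs) to far above it (67.4% against 7.55% for *Gclm* in TNFR2- Tregs), so depth takes a larger part of the spread in the first than in the second.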
